A study of Mus musculus with 2 samples.

Results

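Mast cells and basophils carry granules filled with proteases and bind IgE through a high-affinity receptor. The genes described here are 10 such genes, 8 granule proteases and 2 IgE receptor subunits, out of 22180 genes measured under 1 gene name. They were chosen by symbol: the carboxypeptidase gene Cpa3, the chymase genes Mcpt4, Cma1, Mcpt1 and Mcpt2, the tryptase genes Tpsb2 and Tpsab1, the basophil protease gene Mcpt8, and the receptor genes Fcer1a and Ms4a2. All 10 were measured, each by 1 probe set that named no other gene.

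RNA came from nasal mucosa of C57BL/6 mice aged 4 to 6 weeks. One group received papain, the papaya protease that serves as a model allergen, and the other received phosphate-buffered saline (PBS), the vehicle, and both are labelled with 3 days. Pooled material went onto 1 Affymetrix array (Mouse Gene 2.0 ST) per group: by the design text 4 samples were combined, and whether per array is not said. No difference given here was checked in replicates or tested, and precision is limited by having only 1 array in each group. The title of the study concerns rhinosinusitis and IL-33, and the comparison asks how these genes differed in the mucosa after the protease. In such bulk tissue, fewer cells of a type and less RNA per cell cannot be told apart.

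Mast cells are tissue-resident cells that mature under stem cell factor and its receptor Kit. When allergen crosslinks IgE on their surface, they release histamine, lipid mediators and the stored proteases. In mice, connective tissue mast cells are marked by Mcpt4, Cma1, Tpsb2 and Cpa3, and mucosal mast cells by Mcpt1 and Mcpt2. Basophils, which circulate and enter tissue in type 2 inflammation, are marked by Mcpt8.

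None of the 10 genes differed by 2-fold between the arrays, against 2.56% of all named genes, so this count is near the background. Of the 10, 8 read under background level, the median signal of a set of other-tissue genes, in both arrays, and 70.6% of all named genes read above it in both. Cpa3 and Tpsb2 also did. Cpa3 was 1.39-fold higher after papain, and Tpsb2 differed by a log2 ratio of -0.06. All signals are log2 values as deposited, and ratios are papain minus PBS on that scale. Background level was taken from 29 genes of liver, islet, pituitary, kidney, retina, gonads and mammary gland and came to 4.88 after papain and 5.06 after PBS. The 95 percentile of these genes over both arrays was 6.55, so a signal between the median and 6.55 is not clearly that of the named transcript. Where the signals lie under background level, the ratio describes the probe set and does not measure the transcript.

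Cpa3 encodes carboxypeptidase A of mast cells, a zinc enzyme that trims peptides after chymases have cut them. Its log2 signal was 6.79 after papain against 6.32 after PBS, a log2 ratio of 0.47. The papain signal lay above the 95 percentile of genes of other tissues and the PBS signal below it, so the size of this fold is uncertain. The log2 ratio exceeded 0.32, the SD of the ratio of 1 probe set estimated from 1082 genes with repeated probe sets. It lay inside the central 95% of the ratios of the 500 named genes nearest in mean signal, receptors of smell and pheromones left out, which ran from -0.65 to 0.52. Both spreads are within this pair of arrays and do not cover the variation between animals.

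Tpsb2 encodes mouse mast cell protease 6, a tryptase stored as a tetramer with proteoglycan. It read 5.43 after papain and 5.49 after PBS, above background level in both arrays and under 6.55 in both. Tpsab1 encodes mouse mast cell protease 7, a tryptase that the C57BL/6 strain lacks because of a splice site change. RefSeq lists Tpsab1 as a transcribed pseudogene. It read 4.60 after papain and 4.79 after PBS, a log2 ratio of -0.19, with both signals under background level. Tpsb2 exceeded background level by 0.55 after papain and by 0.43 after PBS on the log2 scale. This excess was larger after papain only through background level, which was 4.88 after papain and 5.06 after PBS. The Tpsb2 signal itself was not higher after papain.

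The 4 genes of the chymase family were all under background level in both arrays. Mcpt4, the main chymase of connective tissue mast cells, read 4.51 after papain and 4.94 after PBS, a log2 ratio of -0.43. Cma1, which encodes mouse mast cell protease 5, a chymase by sequence with elastase-like specificity, read 4.44 and 4.25 in the same order. Mcpt1, a chymase of mucosal mast cells, read 4.19 after papain and 3.97 after PBS. Mcpt2, also of mucosal mast cells, read 4.12 after papain and 3.40 after PBS. Its log2 ratio of 0.72 was the highest of the 10 genes and that of Mcpt4 the lowest, and neither left the central 95% of genes of like signal, which reached 0.82 for Mcpt2 and -0.59 for Mcpt4. A direction is therefore not given for connective tissue or mucosal chymases.

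Basophil and receptor genes gave nearly the same signal in both arrays. Mcpt8, which encodes mouse mast cell protease 8, read 4.76 after papain and 4.75 after PBS, and the sign of its log2 ratio turned with the scaling of the arrays. Fcer1a encodes the subunit of the receptor that binds IgE and read 3.06 in both arrays, a difference whose sign turned likewise. Ms4a2 encodes the beta subunit, which amplifies the signal, and read 4.85 after papain and 4.71 after PBS. All 3 genes were under background level in both arrays.

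**Figure D1:**
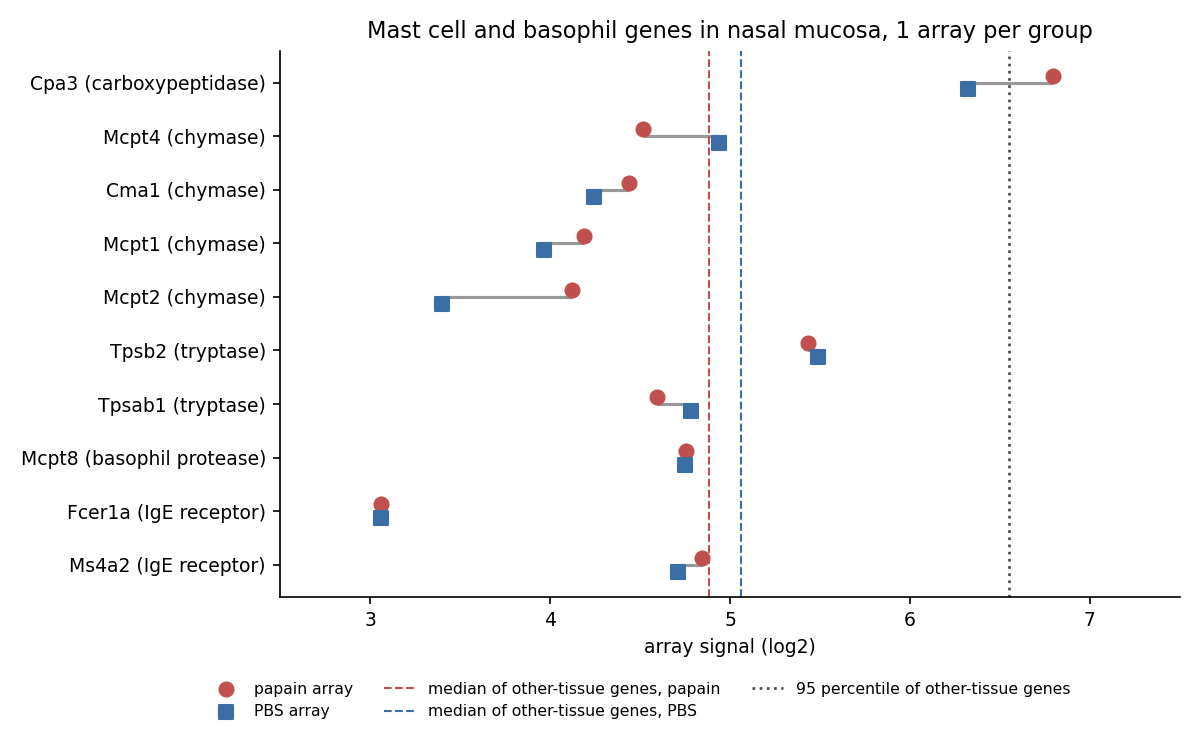
Log2 array signal (x axis) of the 10 mast cell and basophil genes (y axis), with a circle for the papain array and a square for the PBS array, 1 array each, drawn slightly apart in height. Dashed lines mark the median of genes of other tissues in each array and the dotted line their 95 percentile of 6.55. Only Cpa3 and Tpsb2 lie to the right of both dashed lines.

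Of the 10 log2 ratios, 7 were above 0 and 3 below, from -0.43 for Mcpt4 to 0.72 for Mcpt2, with a median of 0.07. The median over all 22180 named genes was -0.03. The 2-fold rule called 2.56% of all named genes, 1.83% higher and 0.73% lower, and 0 of the 10. At a share of 2.56%, none called among 10 genes is near the background and is not a result about these genes. At 1.5-fold, which 9.72% of all named genes passed, 5.38% higher and 4.34% lower, 1 of the 10 was higher, Mcpt2, and 0 were lower. Only Cpa3, Mcpt4 and Mcpt2 had a ratio larger than the SD of 0.32 for 1 probe set, and all 10 lay inside the central 95% of genes of like signal. Cpa3 reached 6.29, the median signal of all named genes, in both arrays, and no other of the 10 reached it in either. Among 10245 named genes in the signal range of the 10, receptors of smell and pheromones left out, 1.65% were past 2-fold and 9.73% past 1.5-fold in either direction.

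**Figure D2:**
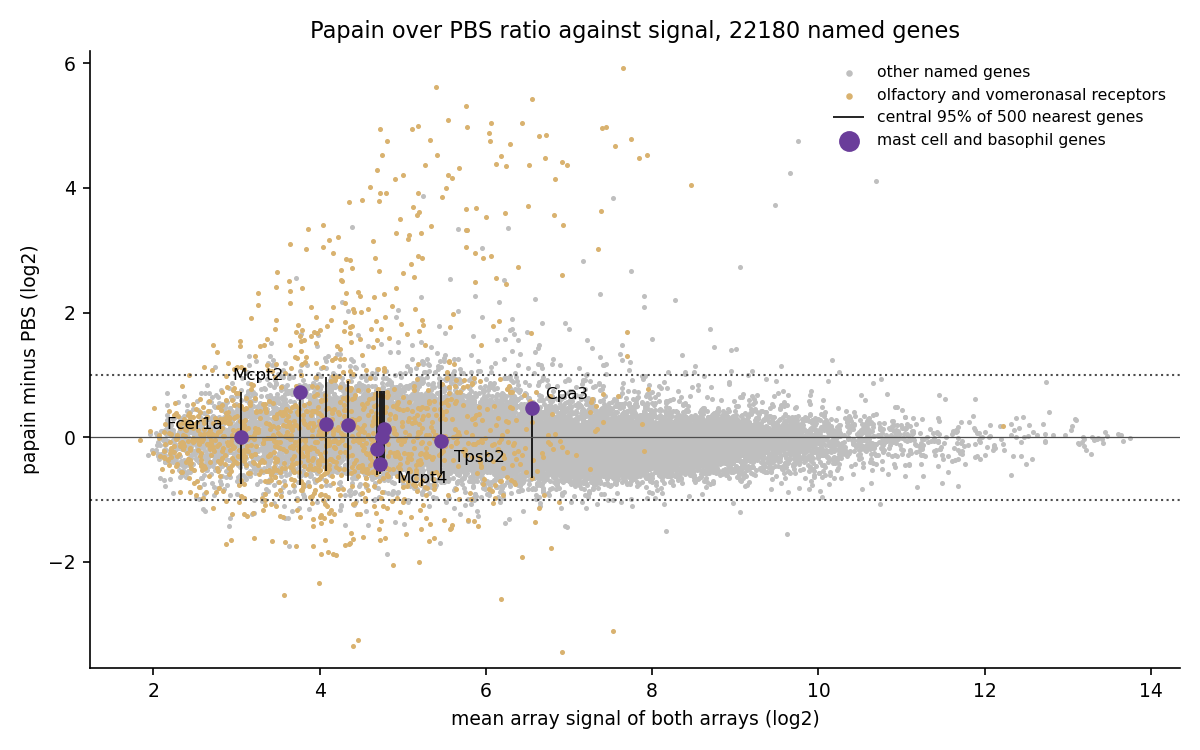
Papain minus PBS on the log2 scale (y axis) against the mean log2 signal of both arrays (x axis) for 22180 named genes, with olfactory and vomeronasal receptors in tan and the 10 mast cell and basophil genes in purple. Vertical bars are the central 95% of the ratios of the 500 genes nearest in signal and dotted lines mark 2-fold. All 10 genes lie inside their bars.

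The chymase and tryptase genes and Mcpt8 lie in clusters with close relatives, most of which were under background level in the chymase cluster, so their values are given as signals of these arrays only. RefSeq places Mcpt1, Mcpt2, Mcpt9, Mcpt4, Mcpt8 and the cathepsin G gene Ctsg next to each other in this order among protein-coding genes, and Cma1 beside Cma2. Of 10 other genes of this cluster 9 were measured, with a median log2 ratio of -0.31. Of these 9, 0 were past 2-fold in either direction, against 2.56% of all named genes, so this count is near the background. Gzmb, the granzyme B gene of cytotoxic lymphocytes, had -0.71, Gzmf -0.61, Cma2 -0.60 and Mcpt9 -0.40. Ctsg, a protease of neutrophil and mast cell granules, had 0.26. Gzmb, which read 4.93 after papain and 5.65 after PBS, was the only one of the 9 above background level in both arrays. The 10 other genes of the tryptase cluster had a median of -0.18, with 5 above background level in both arrays. Of these 10, 0 were past 2-fold, also near the 2.56% of all named genes. Prss30 had -0.67, Prss22, an epithelial protease gene, -0.51, and Prss28 0.49. The papain signal of Prss30 and the PBS signal of Prss28 were under background level. Prss34, the basophil protease mMCP-11, read 4.68 after papain and 4.84 after PBS, under background level in both.

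Upstream sequence is a feature that the choice of genes did not use. GATA factors, GATA2 among them, are known to drive mast cell and basophil genes, and MITF, a factor that mast cells need, binds E-boxes. RefSeq sequences of the GRCm38.p6 build were matched by symbol for 7 of the 10 genes, all but Tpsb2, Tpsab1 and Mcpt2. For each of the 7, the 250 bases before 1 annotated start, the first listed, were searched. The shares over all windows count every listed start, so they are not on the same basis. The letters GATAA, on either strand, were found in 6 of the 7, all but Mcpt8, and in 22.6% of 32851 such windows, several per gene for some genes. Ms4a2 held 3 matches and the others 1 each. Those of Mcpt4 and Mcpt1 lie in nearly the same surrounding bases, so the 6 genes with a match are not all separate cases. The letters CANNTG, an E-box that reads the same on both strands, were found in 4 of the 7, Cpa3, Cma1, Mcpt8 and Fcer1a, and in 66.2% of all windows. A match is a description of letters and no evidence of binding. The arrays give no reading of these windows. The first sequence below is that of the gene with the clearest signal, and the next pair is shown because these windows of Mcpt4 and Mcpt1, markers of different mast cell types, were 83.6% identical, against 42.0% to 55.2% for the other 20 pairs. Each is written 5′ to 3′ on the strand of the gene, with GATAA matches, or TTATC for a match on the opposite strand, in capitals. Cpa3 is at chr3:20242182-20242431 on the minus strand, Mcpt4 at chr14:56062311-56062560 on the minus strand and Mcpt1 at chr14:56017714-56017963 on the plus strand.
Cpa3: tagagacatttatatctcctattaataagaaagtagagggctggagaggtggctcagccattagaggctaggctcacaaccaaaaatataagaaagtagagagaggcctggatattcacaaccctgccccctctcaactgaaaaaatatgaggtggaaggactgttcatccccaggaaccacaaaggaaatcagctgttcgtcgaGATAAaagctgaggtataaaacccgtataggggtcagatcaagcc
Mcpt4: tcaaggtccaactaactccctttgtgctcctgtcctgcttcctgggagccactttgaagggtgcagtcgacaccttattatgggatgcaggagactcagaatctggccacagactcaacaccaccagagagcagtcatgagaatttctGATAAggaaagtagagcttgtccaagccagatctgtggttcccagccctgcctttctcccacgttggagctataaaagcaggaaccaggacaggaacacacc
Mcpt1: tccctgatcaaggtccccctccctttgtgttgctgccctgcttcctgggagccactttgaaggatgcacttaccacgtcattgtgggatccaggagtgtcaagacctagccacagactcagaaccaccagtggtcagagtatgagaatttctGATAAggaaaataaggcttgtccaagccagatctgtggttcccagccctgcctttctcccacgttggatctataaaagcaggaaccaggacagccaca

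The match of Cpa3 began 45 bases before the start, that of Mcpt4 102 bases and that of Mcpt1 98 bases before it. The other genes with a match are shown as the match with 10 bases on each side, cut at the start site for the last one.
Cma1, 194 bases before the start: actgcaaagaTTATCctctacccaa
Fcer1a, 92 bases before the start: aaccctattaTTATCtctggagaaa
Ms4a2, 224 bases before the start: ctgctctcttTTATCttctcatttc
Ms4a2, 37 bases before the start: gcctggagacTTATCtgacaagtag
Ms4a2, 10 bases before the start: tccgcatgaaGATAAtcatt

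**Figure D3:**
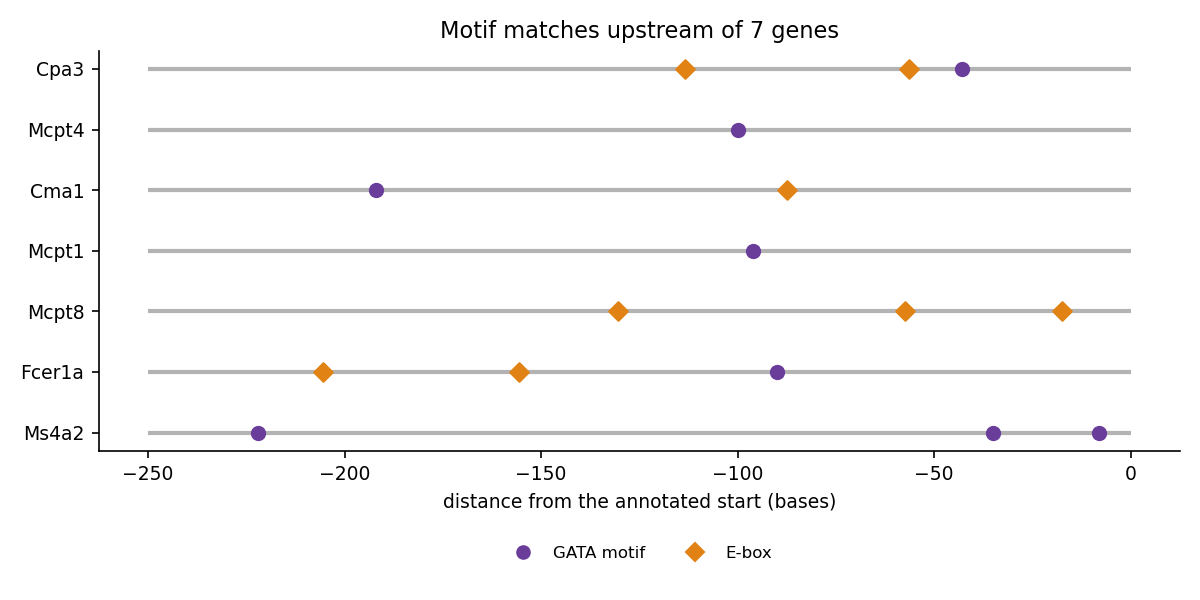
Places of motif matches in the 250 bases before the annotated start (x axis, bases from the start) of the 7 genes with a RefSeq sequence (y axis), with circles for GATA motifs on either strand and diamonds for E-boxes. The GATA motif is absent from the window of Mcpt8, and Ms4a2 holds 3.

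Genes that act downstream of the IgE receptor read above background level, which Fcer1a and Ms4a2 did not. All 20 measured genes of receptor signalling and exocytosis read above background level in both arrays, as 70.6% of all named genes did. Of the 20, 0 were past 2-fold, against 2.56% of all named genes. Some of them, Vav1, Syk and Btk included, read under 6.55 in both arrays, so their signals are not clearly those of the transcripts. The median log2 ratio of the 20 was -0.15, with 16 below 0. Fcer1g, the gamma chain that the IgE receptor shares with other receptors of myeloid cells, read 8.70 after papain and 8.77 after PBS. Fyn, a kinase near the receptor, had -0.55, Vav1 -0.42, Plcg1 -0.39 and Stim1, the calcium sensor of the endoplasmic reticulum, -0.36. A probe set that names Plcg1 together with another gene, not counted here, had 0.53, with its PBS signal of 4.59 under background level. Lyn had no probe set under its name alone and was not analysed here. Many of these genes act in other leukocytes or in most cells, so they do not stand for mast cells.

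Other mast cell genes had no common direction. Of 16 measured genes for identity and mediators, 0 were past 2-fold, near the 2.56% of all named genes. Of the 16, 9 had log2 ratios above 0 and 7 below, and the median was 0.11. For the 11 of these above background level in both arrays the median was -0.02. Kit, the receptor of stem cell factor, which other cells also express, read 7.32 after papain and 7.63 after PBS. Gata2 read 6.83 and 7.00 in the same order, and Hdc, the enzyme that makes histamine, 5.84 and 6.02. Mrgprb1 had -0.43, with both signals under background level. Hpgds, the synthase of prostaglandin D2, had 0.38, Mrgprb2, the receptor for basic secretagogues, under background level in both arrays, 0.38, and Alox5ap, the partner of 5-lipoxygenase, 0.34. Basophil genes had a median of 0.04 over 5 genes, with 0 past 2-fold, also near the 2.56% of all named genes. Il3ra, a subunit of the interleukin-3 receptor, had 0.83, Itga2 -0.74 and Cd200r3, under background level in both arrays, 0.51. Il3ra and Itga2 read above background level in both arrays, which Mcpt8, Prss34 and Cd200r3 did not, so the ratios of Il3ra and Itga2 are not read as basophil values. Il3ra, at 6.50 after papain and 5.67 after PBS, was under 6.55 in both, so its signal is not clearly that of the transcript.

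Among genes for growth and homing of mast cells, 0 of 12 measured were past 2-fold, and among inhibitors of such proteases 0 of 5, both near the 2.56% of all named genes. The growth and homing genes had a median of 0.04 over all 12 and of -0.01 over the 9 above background level in both arrays. Itga4, an integrin subunit used by mast cell progenitors, had 0.90. A probe set that names Itga4 together with another gene, not counted here, had -0.14. Il4, under background level in both arrays, had 0.61. Il9, a growth factor of mucosal mast cells, had 0.56, also with both signals under background level. Kitl, which encodes stem cell factor, had -0.27, and Il33, whose cytokine acts on mast cells, -0.54. Il1rl1, which encodes the receptor for IL-33, was not analysed here. Of 5 inhibitor genes, Slpi had 0.55, Serpinb1a 0.54, Serpinb6b -0.32 and Lxn, which encodes the carboxypeptidase inhibitor latexin, 0.31.

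Markers of some other cells differed between the same arrays, and the part of other cells in the ratios of the 10 genes was not tested. The counts below stand beside the 2.56% of all named genes past 2-fold, 1.83% higher and 0.73% lower. Of 5 vomeronasal neuron markers, chosen with their difference already known, 3 were at least 2-fold higher after papain. Among these 3, H2-M1 and Calr4 had PBS signals of 3.31 and 4.59, under background level, so the size of their ratios is uncertain. S100z, the brightest of the 5 after papain, read 11.35 after papain and 7.62 after PBS. Trpc2, at 0.83, and Gnao1, at 0.56, were not past 2-fold. For the 3 markers above background level in both arrays, S100z, Trpc2 and Gnao1, the median was 0.83. The summed linear signal of the 5 was 3864 after papain and 802 after PBS, and such a sum weighs the brightest gene most. All 5 fibroblast markers were lower after papain, with 0 past 2-fold, a median log2 ratio of -0.60 and a summed linear signal of 9928 against 14888. Eosinophil markers had a median of 0.25 over 5 genes with 0 past 2-fold, from -0.14 for Il5ra, under background level in both arrays, to 0.38 for Siglecf. The median was 0.12 for the 2 above background level in both arrays, and the 5 had a summed linear signal of 163 against 146. Cytotoxic lymphocyte markers had a median of 0.10 over 5 genes, 2 of them above background level in both arrays, with 0 past 2-fold and Gzma, its PBS signal of 4.13 under background level, at 0.98. Gzmb, counted above with its cluster and not in this list, went the other way at -0.71. The 8 neutrophil markers had a median of 0.20, with 6 log2 ratios above 0 and 2 below, and 5 read above background level in both arrays. Of the 8, only Cxcr2 was past 2-fold, 2.40-fold higher, and none was at least 2-fold lower. Ly6g went the other way at -0.72, with both signals under background level. Macrophage, endothelial and group 2 innate lymphoid cell markers had medians of 0.18, -0.18 and -0.01, with 0 past 2-fold in each list. The 3 smooth muscle markers had a median of 0.23, and of these only Myh11 was past 2-fold, 2.015-fold higher. The signal of none of these markers was at 0, which does not show detection, because that of none of the genes of other tissues was at 0 either. For the tissue label, Cnga2 of olfactory neurons read 8.38 after papain and 8.95 after PBS, and Epcam of epithelium 10.32 and 10.18.

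**Figure D4:**
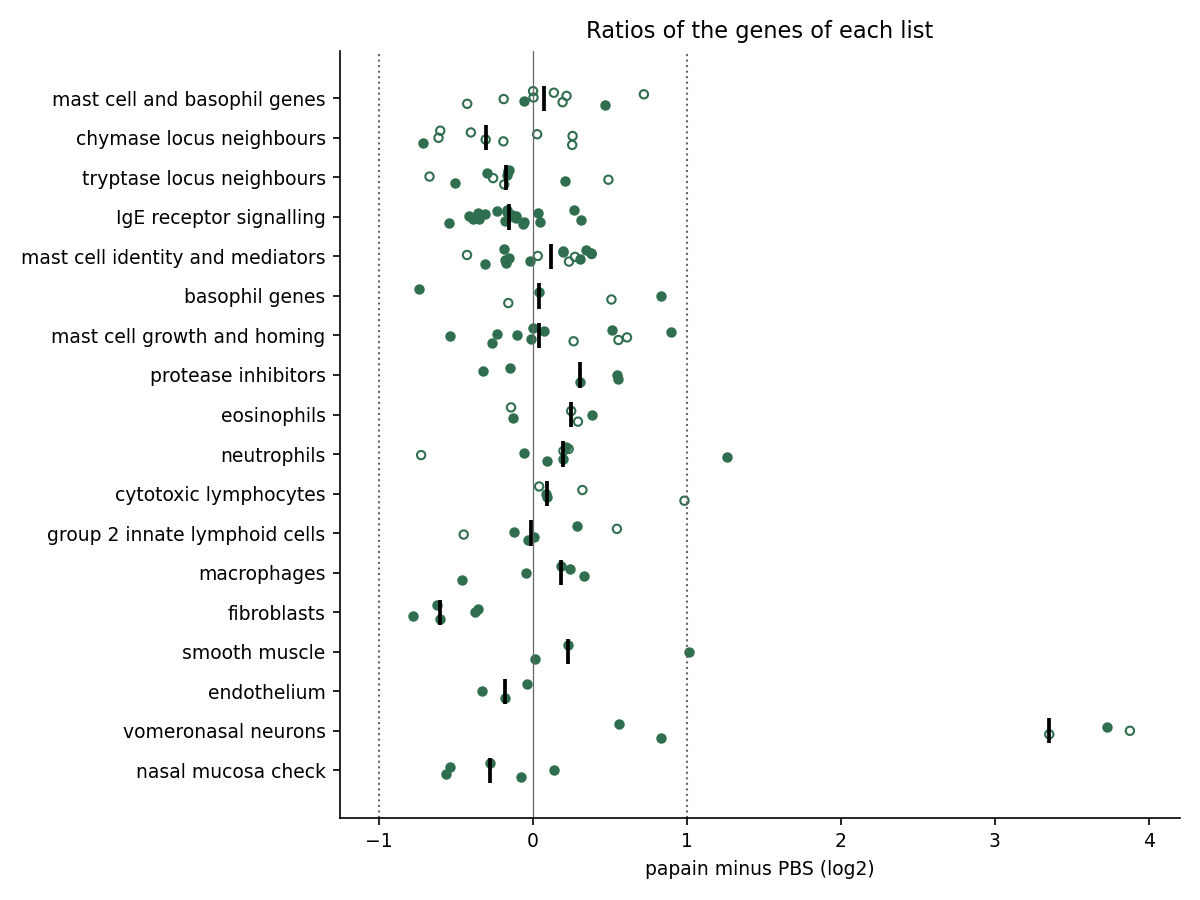
Papain minus PBS on the log2 scale (x axis) for each measured gene of the lists (y axis). Filled points are genes above background level in both arrays, open points are the others, black bars are list medians and dotted lines mark 2-fold. The bar of the mast cell and basophil genes is at 0.07, and 2 of their 10 points are filled.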

How the data were processed

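Total RNA of nasal mucosa was hybridised to 2 Affymetrix arrays, 1 for papain and 1 for PBS. The authors deposited log2 signals, 1 per transcript cluster and array, with array medians of 5.70 and 5.64, and the log2 scale was taken from the range of the values. The submitters' processing notes name Transcriptome Analysis Console 4.0. How background, probe summaries and array scaling were handled is not given in the sources used here, and scaling both arrays alike could hide a difference in total RNA.

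Of 41345 transcript clusters, 23521 had 1 gene symbol, 1814 several and 16010 none, and the brightest cluster per symbol gave 22180 genes. The 10 gene IDs all matched RefSeq with the same symbol. Lists and genes were chosen with earlier results of these data known. The genes named were the 10, up to 4 per other list with the largest ratios, and Kit, Gata2, Hdc, Fcer1g, Il33, Kitl, Prss34, Cd200r3 and Ctsg. Of 33 genes of other tissues 29 were measured. Alternatives were quantile normalization, centring, loess with a span of 0.3, averaged probe sets, 1.5-fold and 3-fold rules and floors on signal. Counting and scaling were tested on simulated data. Windows before the start were aligned globally with free end gaps. Protein sequences were planned and not used here. Python 3.11.15, numpy 2.4.6, pandas 2.3.3, statsmodels 0.14.6, biopython 1.88 and matplotlib 3.10.9 were used.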

Additional observations from a re-analysis of the deposited data

How the results depend on the processing

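No paired analysis was possible because each group was 1 array. The counts of 0 genes at least 2-fold higher and 0 lower held under quantile normalization, a median ratio set to 0 and loess. Averaged probe sets and a 3-fold rule could not change these counts, because each gene had 1 probe set and 3-fold is stricter. At 1.5-fold 1 gene, Mcpt2, was higher. The median log2 ratio of the 10 genes, 0.07, was 0.02 to 0.10 under these scalings, 0.47 with only the 1 gene that reached the median signal of all named genes, Cpa3, and 0.21 with the 2 above background level in both arrays. The signs of Mcpt8, from -0.08 to 0.04, and Fcer1a, from -0.01 to 0.04, turned, and those of the other 8 genes did not. Of 68 medians of other lists under these settings 1 moved, that of mast cell identity and mediators, which was 0.01 with averaged probe sets. A median counted as moved when it shifted by at least 0.32, the SD for 1 probe set, divided by the square root of the number of measured genes. The medians of basophil genes and of group 2 innate lymphoid cells changed sign, but by less than that. No probe set named one of the 10 genes together with another, so that alternative gave no value. Signal over background limits all 10 genes: 8 were under background level, Tpsb2 was under the 95 percentile of other-tissue genes in both arrays and Cpa3 in the PBS array. No replicate exists for any of them.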
